A study of Mus musculus with 12 samples.

Results

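The T cell receptor gene segments of the mouse were followed in 12 RNA-seq libraries of subcutaneous fat and liver. They were taken as the rows of the count table with the gene biotype TR_V_gene or TR_C_gene, which gave 152 of 54532 rows. Of these, 144 were variable (V) genes and 8 were constant (C) genes. The V genes comprised 110 of the alpha chain, 22 of the beta chain, 7 of the gamma chain and 5 of the delta chain. A total of 96 members had at least 1 count in some library and 56 had none in any.

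The strain of the mice is not stated in the sources used here. All were males that received 1 tail vein injection of an AAV8 vector at 10 weeks of age and were killed after 16 weeks on a low-fat diet. The control vector (null) and the vector for human HKDC1 (hHKDC1 OE) both carried the TBG promoter, which is active in hepatocytes, so the transgene was aimed at the liver and the fat was not its target tissue. Each tissue and vector gave 3 libraries of bulk tissue, named here by group and replicate. In both tissues the sample titles assign replicates 2 and 3 of the hHKDC1 OE group to overexpression while their descriptions call them knockouts, and they were kept in the hHKDC1 OE group.

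A T cell receptor is a pair of chains, either alpha with beta or gamma with delta. Each chain is made by joining a V segment, in the beta and delta chains also a D segment, and a J segment in the DNA of a developing T cell in the thymus, and splicing the product to a constant region. A single T cell therefore transcribes 1 productive V segment per chain out of many, while every cell with that chain transcribes its constant gene. The CD3 chains carry the receptor to the cell surface and pass on its signal. In libraries of bulk tissue, fewer T cells and less receptor RNA per cell cannot be told apart.

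The members lie at 3 loci, and all 152 had the same position in GENCODE vM21 on GRCm38. The alpha locus extends on chromosome 14 from Trav1, which starts at 52427928, to the end of Trac at 54224206, and the delta genes lie inside it. The beta locus runs on chromosome 6 from the start of Trbv1 at 40891229 to the end of Trbv31 at 41558452. The gamma locus runs on chromosome 13 from the start of Tcrg-V7 at 19178024 to the end of Tcrg-C4 at 19352756. The library kit did not keep strand, and 13 members overlapped another row of the table, among them Trdc with Trdv5.

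Many segments are near copies, which sets how well a read of 150 bases can be placed. Of the stretches of 150 bases in the transcripts of the beta constant genes, 18.4% in Trbc1 and 20.3% in Trbc2 occur in another T cell receptor transcript. A read from these cannot be assigned to one gene by itself, though in paired-end libraries its mate may lie outside them.

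The beta V genes were distinct by comparison. The stretch below is the first 150 bases of the second coding exon in the 3 genes of the Trbv13 family, of which Trbv13-2 had the most counts of all V genes in fat, and capitals mark the 14 positions at which they are not all alike. The positions on the + strand of GRCm38 are chr6:41116175-41116324 for Trbv13-1, chr6:41121539-41121688 for Trbv13-2 and chr6:41130292-41130441 for Trbv13-3.
Trbv13-1: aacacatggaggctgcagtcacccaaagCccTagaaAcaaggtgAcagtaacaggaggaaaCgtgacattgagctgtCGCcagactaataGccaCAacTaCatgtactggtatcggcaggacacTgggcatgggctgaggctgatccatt
Trbv13-2: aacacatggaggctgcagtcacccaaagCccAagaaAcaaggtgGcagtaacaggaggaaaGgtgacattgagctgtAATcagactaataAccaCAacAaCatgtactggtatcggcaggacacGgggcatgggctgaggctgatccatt
Trbv13-3: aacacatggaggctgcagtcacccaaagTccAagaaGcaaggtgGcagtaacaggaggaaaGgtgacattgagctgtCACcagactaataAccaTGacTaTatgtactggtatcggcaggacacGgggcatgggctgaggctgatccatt

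The alpha V genes of this genome occur in duplicated blocks. The same stretch is given for 3 copies of Trav14, which were 3 of the 5 alpha V genes with the highest level in fat, at chr14:53763386-53763535 for Trav14-3, chr14:53370267-53370416 for Trav14n-3 and chr14:53078737-53078886 for Trav14d-3-dv8, all on the + strand. Capitals mark the 3 positions that are not alike in this window. Over 309 bases of the exon, the pairs were 96.8% to 98.1% identical.
Trav14-3: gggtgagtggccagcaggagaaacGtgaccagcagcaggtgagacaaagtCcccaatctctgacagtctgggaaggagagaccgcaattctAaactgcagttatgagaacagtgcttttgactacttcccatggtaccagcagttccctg
Trav14n-3: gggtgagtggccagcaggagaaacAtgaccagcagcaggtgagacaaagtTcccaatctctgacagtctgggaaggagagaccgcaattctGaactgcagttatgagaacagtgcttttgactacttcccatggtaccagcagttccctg
Trav14d-3-dv8: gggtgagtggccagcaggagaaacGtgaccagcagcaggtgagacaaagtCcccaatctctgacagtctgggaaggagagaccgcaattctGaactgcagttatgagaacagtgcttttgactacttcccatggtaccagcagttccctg

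Trav11 and Trav11d encode the alpha V region of invariant natural killer T cells. They were identical over the 290 bases compared, and the first 150 of these are shown because neither gene received a count in any library. The positions are chr14:53519569-53519718 for Trav11 and chr14:52824623-52824772 for Trav11d on the + strand. A count of 0 at these genes does not speak about the cells, since nearly all stretches of 150 bases in them occur in both copies.
Trav11 and Trav11d: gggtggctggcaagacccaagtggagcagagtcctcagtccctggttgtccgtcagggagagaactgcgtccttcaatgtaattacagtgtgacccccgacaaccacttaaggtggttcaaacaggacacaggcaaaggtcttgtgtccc

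The libraries held 15496019 to 19954971 counts, and the receptor genes took a very small part of them. Member counts in fat were 117, 62 and 168 in the null replicates 1 to 3 and 6764, 476 and 7242 in the hHKDC1 OE replicates. In liver they were 27, 74 and 71 in the null group and 12, 30 and 19 in the hHKDC1 OE group. Mouse Hkdc1, which differs in sequence from the human transgene and so does not check the vector, had 0 to 8 counts in every library. Replicate 2 of the hHKDC1 OE fat group stood far below replicates 1 and 3, so the main results in fat are also given without it.

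The summed level of the members was higher in hHKDC1 OE fat than in null fat. Normalised within fat and given as counts per 1000000 counts of the library (CPM), it was 7.11, 3.84 and 8.99 CPM in the null group (mean 6.65 ± 2.60 SD, n = 3) and 320, 23.3 and 445 CPM in the hHKDC1 OE group (mean 263 ± 217 SD, n = 3). Every hHKDC1 OE library lay above every null library. Replicates 1 and 3 were 48.2 and 67.0 times the null mean, and replicate 2 was 3.50 times. The difference of the mean log2 levels was 4.57, with p = 0.1 in a two-sided exact permutation test, the smallest p that 3 libraries against 3 can give (adjusted p = 0.129 over the 9 exact tests made). Without replicate 2 the difference was 5.91.

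The order in liver was the opposite. The summed level was 1.67, 4.82 and 4.40 CPM in the null libraries (mean 3.63 ± 1.71 SD, n = 3) and 0.738, 1.60 and 1.01 CPM in the hHKDC1 OE libraries (mean 1.12 ± 0.438 SD, n = 3). The groups did not overlap by a narrow margin, between 1.60 and 1.67 CPM, and with library size alone as the scale they did, since hHKDC1 OE replicate 2 then had 1.73 CPM and null replicate 1 had 1.58. The difference of the mean log2 levels was -1.63 (p = 0.1 by a two-sided exact permutation test, the lowest possible; adjusted p = 0.129). These levels rest on 12 to 74 counts per library.

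**Figure D1:**
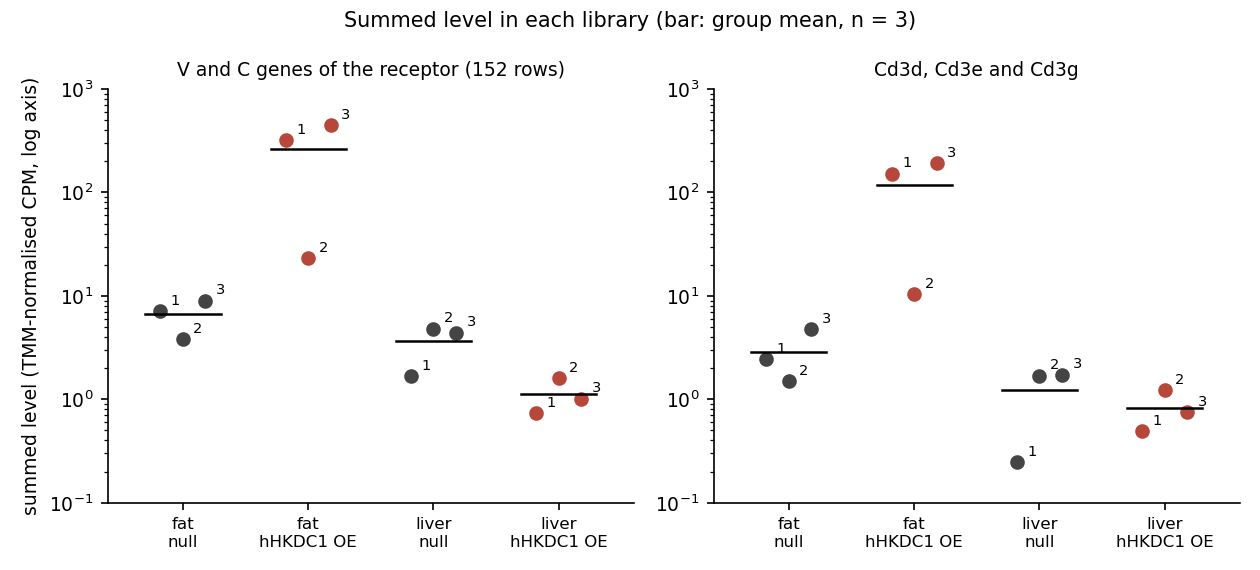
Summed level of the 152 receptor V and C genes (left) and of Cd3d, Cd3e and Cd3g (right) in each library, in TMM-normalised CPM scaled within each tissue, on a log axis. Points are libraries with their replicate number and bars are means of 3. In fat, hHKDC1 OE replicates 1 and 3 lie far above the null libraries in both panels and replicate 2 lies between.

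Between tissues, with the 12 libraries scaled together and labels permuted within each vector, the mean log2 level was 3.14 higher in fat than in liver (two-sided exact permutation test, p = 0.055; adjusted p = 0.129). The null groups of both tissues overlapped on this scale, at 2.77 to 6.46 CPM in fat and 2.33 to 6.58 CPM in liver. In the hHKDC1 OE group the fat libraries had 17.2 to 335 CPM and the liver libraries 1.01 to 2.12 CPM.

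The beta constant genes together had more counts than any other chain's in hHKDC1 OE fat, and gene by gene Trac exceeded Trbc1 in all 3 libraries and Trbc2 in replicate 2. Trbc2 (ENSMUSG00000076498) had 16, 8 and 46 counts in the 3 null replicates of fat, against 2642, 143 and 2707 with hHKDC1 OE. Its log2 fold change was 6.22 ± 1.24 SE in edgeR's quasi-likelihood test, with an adjusted p of 0.133. Trbc1 (ENSMUSG00000076490) had 16, 11 and 24 counts against 1205, 86 and 1648, a log2 fold change of 5.77 ± 1.12 SE with the same adjusted p of 0.133 by edgeR. In both genes every hHKDC1 OE library was above every null library.

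Trac (ENSMUSG00000076928), the constant gene of the alpha chain, had 60, 19 and 46 counts in fat with the null vector and 1684, 147 and 1894 in hHKDC1 OE fat. Its log2 fold change was 4.80 ± 1.01 SE (edgeR, adjusted p = 0.133). Pooled over the libraries of a group, Trac was 26.4-fold higher in CPM, with an exact 95% interval of 22.1 to 31.8 that covers counting error only. The pooled ratios of the beta genes were larger, at 51.1 (38.7 to 68.8) for Trbc1 and 69.6 (55.0 to 89.4) for Trbc2. The intervals of the alpha and the beta genes did not overlap, but the spread between libraries is not in them.

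Among the constant genes of the gamma and delta chains, Trdc and Tcrg-C4 had every hHKDC1 OE library above every null library, whereas the groups of Tcrg-C1 and Tcrg-C2 overlapped. Trdc (ENSMUSG00000104876) had 11, 2 and 7 counts in fat with the null vector and 125, 18 and 150 with hHKDC1 OE, a pooled ratio of 12.99 (8.26 to 21.6) and a log2 fold change of 3.75 ± 0.959 SE (edgeR, adjusted p = 0.138). Tcrg-C1 (ENSMUSG00000076749) had 12, 4 and 7 counts against 81, 7 and 55, a pooled ratio of 5.51 (3.53 to 8.97). Its groups overlapped, since hHKDC1 OE replicate 2 was below null replicate 1. Tcrg-C2 (ENSMUSG00000076752) had 1, 3 and 9 counts against 66, 2 and 82, and overlapped in the same way.

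Tcrg-C4 (ENSMUSG00000076757) had no count in fat with the null vector and 34, 8 and 22 counts in hHKDC1 OE fat. Against a floor of 3 counts over the null group, it was at least 18.9-fold higher. That figure takes the hHKDC1 OE counts as measured, and with counting error in both groups the exact 95% interval of the pooled ratio began at 14.9. Tcrg-C3 (ENSMUSG00000091682) had no count in any of the 12 libraries, which allows up to 3 counts in each.

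Of the 152 members, only 7 passed the filter on low counts in fat. These were Trac, Trbc1, Trbc2, Trdc, Tcrg-C1, Trbv13-2 and Trbv3, and a gene that passed through the group in which it was high had to differ, so the counts that follow describe these 7 and support nothing about the members. Their log2 fold changes ran from 2.47 to 6.22. None of the 7 was called at an adjusted p under 0.05 by edgeR, and 0.0% of the 16380 genes tested were. At an unadjusted p under 0.05 the number was 6, with 11.3% of all genes tested on the same side, and in 5 of the 7 every hHKDC1 OE library was above every null library in CPM, as in 12.5% of all genes tested.

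DESeq2, the tool named in the study's methods, gave calls where edgeR gave none. It fitted 95 members, of which 28 kept an adjusted p, and called 15 higher, beside 4.16% of all genes fitted, and none lower. The 15 were 6 constant genes (Trac, Trbc1, Trbc2, Trdc, Tcrg-C2 and Tcrg-C4) and 9 beta V genes. An adjusted p is kept by the mean count over the libraries, which for members such as Tcrg-C4 came from hHKDC1 OE fat alone. The 15 calls therefore describe these genes and support nothing about the members. Without hHKDC1 OE replicate 2, edgeR tested 24 members and called 21 higher, beside 11.4% of all genes. The library left out is the one with low member levels, and the filter then admits members such as Tcrg-C4 through the high group alone, so nothing is read from the 21. Without that replicate the log2 fold change was 6.75 ± 0.528 SE for Trbc2 and 5.32 ± 0.422 SE for Trac. The SE and the edgeR adjusted p, 0.000827 for both genes, were lowered by leaving out the low library. Nothing is read from them either.

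In liver the constant genes were near the floor of detection. Trbc2 had 8, 21 and 18 counts in the null group and 3, 8 and 3 in the hHKDC1 OE group, and Trac had 6, 19 and 13 against 3, 6 and 3. Trbc1 had 6, 13 and 9 counts against 3, 4 and 2. The groups of Trbc1 did not overlap in counts, whereas those of Trac and Trbc2 met at 6 and at 8 counts. In CPM, 4 of the 15 members with a count in liver, Trac, Trbc1, Trbc2 and Tcrg-C2, had every hHKDC1 OE library below every null library, beside 4.44% of the 24792 rows with a count there. None of the 152 members passed the filter in liver, so edgeR tested none, and 0.0% of the 13351 genes it tested were called there. DESeq2 fitted 15 members in liver, of which 3 kept an adjusted p, and called none, beside 0.367% of all genes fitted that were called in either direction. At an unadjusted p under 0.05, DESeq2 had 2 members, Trac and Trbc2, both lower with hHKDC1 OE, beside 1.79% of all genes fitted.

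Of the gamma constant genes with counts in liver, Tcrg-C2 had groups that did not overlap, in the same order, whereas those of Tcrg-C1 and Tcrg-C4 overlapped. Tcrg-C2 had 3, 9 and 7 counts in the null group and 2, 1 and 2 in the hHKDC1 OE group. Tcrg-C1 had 3, 2 and 1 counts against 0, 4 and 1, and Tcrg-C4 had 0, 5 and 5 against 1, 1 and 7. Trdc had 0, 1 and 4 counts in null liver and none in the 3 hHKDC1 OE libraries.

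Whether the vector effect differed between the tissues was tested for each member over the 12 libraries. The 7 members that passed the filter over all libraries were Trac, Trbc1, Trbc2, Trdc, Tcrg-C1, Tcrg-C2 and Trbv13-2. The interaction (fat effect minus liver effect on the log2 scale) was 8.21 ± 1.54 SE for Trbc2, 7.64 ± 1.44 SE for Trbc1 and 6.71 ± 1.34 SE for Trac, each with an edgeR adjusted p of 0.139. As in fat alone, members that passed the filter through hHKDC1 OE fat had to differ, so the counts describe these 7 only. No member was called by edgeR, and 0.0% of all genes were. At an unadjusted p under 0.05, 6 members had a larger effect in fat, beside 9.0% of all genes. DESeq2 called 7 of the 96 members it fitted with a larger effect in fat, beside 1.3% of all genes, and the same limit holds for these calls.

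The balance of the chains was compared by the constant genes, with counts divided by gene length because levels of different genes are set side by side. Trdc is the longest, at 3865 bases, and Tcrg-C3 the shortest, at 650 bases. In null fat, gamma and delta constant genes together took 13.5%, 14.9% and 11.5% of the constant gene counts per kb (mean 13.3 ± 1.68 SD, n = 3). In hHKDC1 OE fat they took 3.04%, 4.50% and 2.52% (mean 3.35 ± 1.02 SD, n = 3). The groups did not overlap, and replicate 2, which stood apart in level, lay with replicates 1 and 3 in this share. The difference of -9.93 percentage points had p = 0.1 in a two-sided exact permutation test, the smallest possible (adjusted p = 0.129). Without replicate 2 it was -10.5 percentage points. With V genes in place of constant genes the groups overlapped, at 0%, 0% and 26.7% in the null libraries of fat against 1.85%, 6.83% and 5.85% with hHKDC1 OE, a difference of -4.05 points (two-sided exact permutation test, p = 1.0), where the null values rest on 1, 15 and 29 V counts.

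The single chains were not tested one by one. Beta constant genes took 35.4%, 48.0% and 59.0% of the counts per kb in fat with the null vector and 72.8%, 64.1% and 73.2% in hHKDC1 OE fat. Alpha took 51.1%, 37.2% and 29.5% in fat with the null vector and 24.2%, 31.4% and 24.3% in hHKDC1 OE fat, where replicate 2 lay above null replicate 3. Gamma alone took 10.4% to 13.9% in fat with the null vector and 2.06% to 3.57% in hHKDC1 OE fat. Delta took 0.946% to 2.27% and 0.434% to 0.929%, so that the groups nearly met.

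In liver, gamma and delta constant genes took 20.1%, 20.3% and 22.2% of the counts per kb in the null group (mean 20.9 ± 1.18 SD, n = 3). In the hHKDC1 OE group they took 21.7%, 21.6% and 50.4% (mean 31.2 ± 16.6 SD, n = 3). The highest value, in replicate 3, rested on 10 gamma counts of 18 constant gene counts, of which Tcrg-C4 gave 7. The difference of 10.4 percentage points was not larger than the spread of the libraries (two-sided exact permutation test, p = 0.3; adjusted p = 0.338). It rested on that replicate, since without it the difference was 0.797 percentage points, and it ran up to 15.2 with another library left out.

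Counting error was wide wherever levels were low. As a share of constant gene counts without the length correction, gamma and delta genes held 23.1% in liver null replicate 1, with an exact 95% interval of 8.97% to 43.6%. In hHKDC1 OE fat replicate 1 the share was 5.24%, with an interval of 4.68% to 5.85%. The null fat libraries held 20.7% (13.7% to 29.2%), 19.1% (9.15% to 33.3%) and 16.5% (10.8% to 23.8%). The intervals of hHKDC1 OE replicates 1 and 3 thus lay below those of all 3 null fat libraries, and that of replicate 2, 6.003% to 11.6%, overlapped the intervals of null replicates 2 and 3.

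Between tissues, the gamma and delta share was lower in fat than in liver by 17.7 percentage points, as the average of the differences within each vector (-17.7; p = 0.005 by a two-sided exact permutation test, the lowest possible; adjusted p = 0.045). All 6 fat libraries, at 2.52% to 14.9%, lay below all 6 liver libraries, at 20.1% to 50.4%. Within the null vector alone the ranges were 11.5% to 14.9% in fat and 20.1% to 22.2% in liver. The direction and the p were kept without the length correction and with each library left out in turn.

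**Figure D2:**
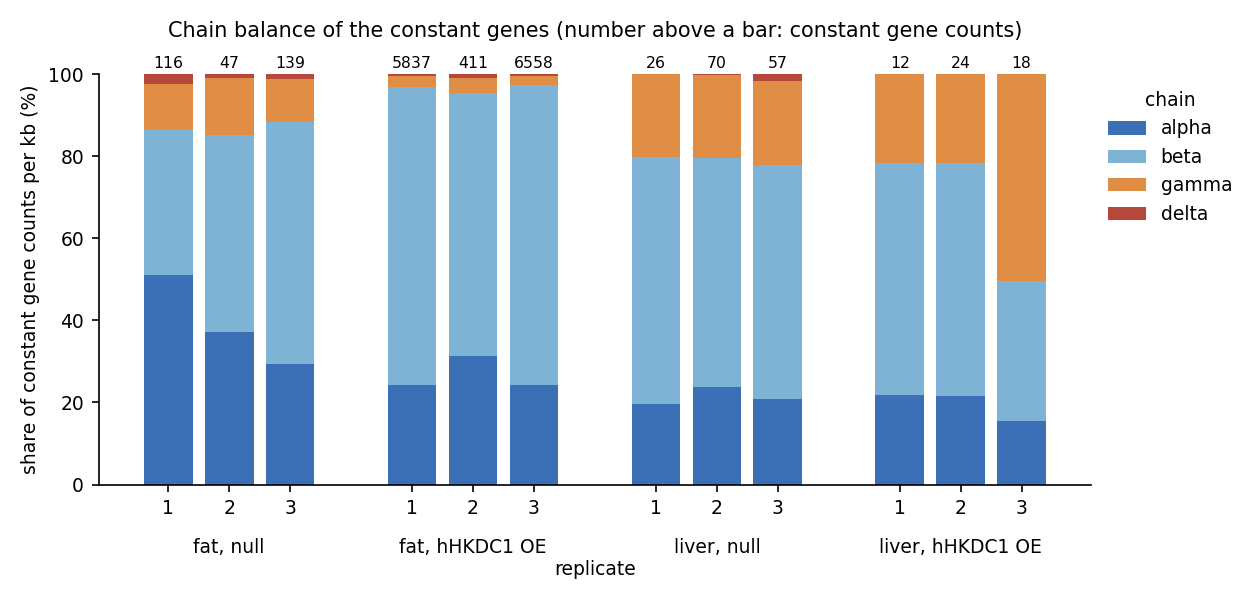
Share of alpha, beta, gamma and delta genes in the constant gene counts per kb of each library, with the number of constant gene counts above each bar. In hHKDC1 OE fat the gamma and delta parts together are 2.52% to 4.50%, in null fat 11.5% to 14.9% and in liver 20.1% or more, where bars rest on 12 to 70 counts.

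The beta chain has a pair of constant genes, each behind its own set of D and J segments. Trbc2 took 68.7% of the Trbc counts in hHKDC1 OE fat replicate 1 (exact 95% interval 67.2% to 70.1%), 62.4% in replicate 2 (55.8% to 68.7%) and 62.2% in replicate 3 (60.7% to 63.6%). Replicates 1 and 3 thus differed by more than counting error. In null fat the share was 42.1% in replicate 2 and 65.7% in replicate 3, with equal counts of both genes in replicate 1, and in liver it reached at most 66.7%, with wide intervals. Since the genes share stretches as long as a read, how reads were split between the genes by the authors' counting is uncertain, and no test between groups was made.

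The number of V genes with at least 1 count was 1, 3 and 12 in the null fat libraries and 77, 23 and 64 in the hHKDC1 OE fat libraries, of 144. The groups did not overlap. The difference of the means, 49.3 genes, had p = 0.1 (lowest possible in this two-sided exact permutation test; adjusted p = 0.129), and without hHKDC1 OE replicate 2 it was 65.2 genes. In liver the numbers were 1, 2 and 4 in the null group and 0, 4 and 1 in the hHKDC1 OE group, a difference of -0.67 (two-sided exact permutation test, p = 0.8; adjusted p = 0.8). Fat exceeded liver by 28.0 genes (two-sided exact permutation test within vectors, p = 0.035; adjusted p = 0.129).

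The number of V genes went with the number of V gene counts. In fat these were 1, 15 and 29 in null libraries against 927, 65 and 684 with hHKDC1 OE. In liver they were 1, 4 and 14 against 0, 6 and 1. Thinned to the 65 counts of replicate 2, hHKDC1 OE replicates 1 and 3 would be expected to show 31.9 and 31.2 V genes, against 23 observed in replicate 2. In the other groups the counts were too few to be thinned to a common depth, so whether the variety of V genes differed beyond the counts was not tested. V gene counts were 15.9, 15.8 and 10.4 per 100 constant gene counts in hHKDC1 OE fat, and 0.862 to 31.9 in null fat.

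**Figure D3:**
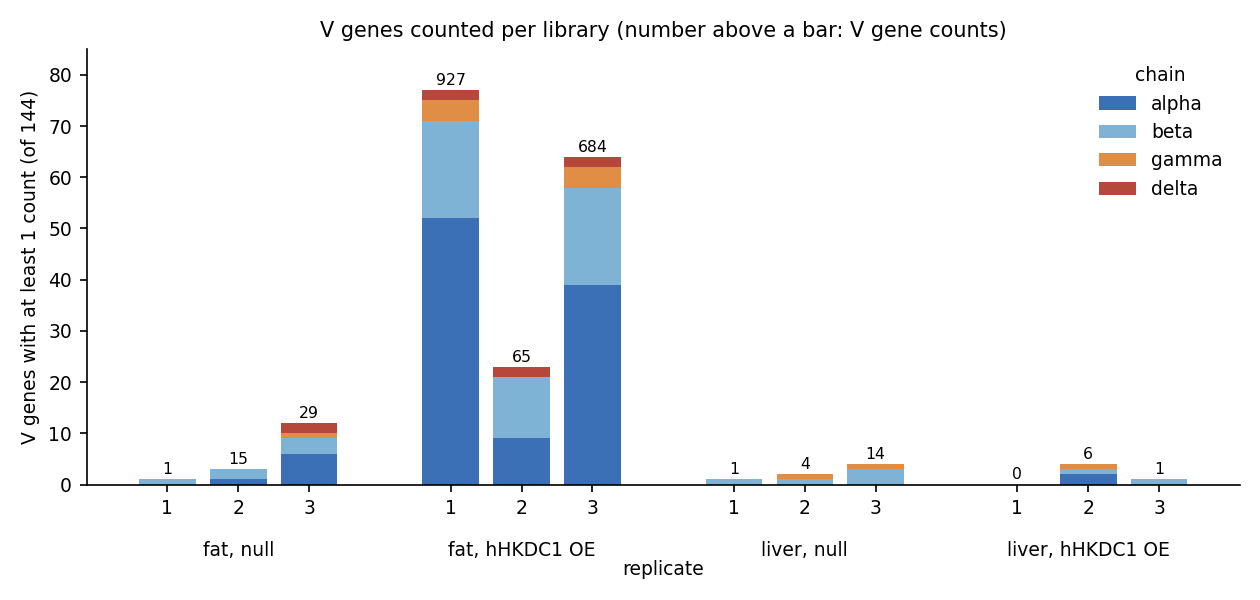
Number of V genes with at least 1 count in each library, by chain, of 144 in the table, with the number of V gene counts above each bar. The hHKDC1 OE fat libraries show 77, 23 and 64 V genes, the null fat libraries 1 to 12 and the liver libraries 0 to 4.

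The V genes counted in hHKDC1 OE fat covered most of the beta locus. Of 22 beta V genes, 20 had counts there, 19 in replicate 1, 12 in replicate 2 and 19 in replicate 3, and Trbv5 and Trbv21 had none in any library. In null fat 5 beta V genes had counts, and all 5 were among the 20. Replicates 1 and 3 shared 18 beta V genes, 94.7% of those of each. Over all chains, 87 V genes had counts in hHKDC1 OE fat and 15 in null fat, and replicates 1 and 3 shared 56, which was 72.7% of the V genes of replicate 1 and 87.5% of those of replicate 3.

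The counts of hHKDC1 OE fat were spread over many beta V genes. Trbv13-2, which with Trbv29 and Trbv1 is used by natural killer T cells as well as by conventional T cells, had 76, 14 and 66 counts in hHKDC1 OE fat and 1, 0 and 2 in null fat. It was the V gene with the most counts in all 3 hHKDC1 OE libraries, at 8.20%, 21.5% and 9.65% of V counts, and it had a log2 fold change of 5.42 ± 1.03 SE (edgeR, adjusted p = 0.133). Trbv16 had 59, 1 and 57 counts, Trbv13-3 had 44, 1 and 42, Trbv1 had 49, 5 and 36 and Trbv13-1 had 54, 1 and 18. None of these 4 had a count in null fat. Against the floor of 3 counts over the null group they were at least 34.6-fold, 25.7-fold, 26.6-fold and 21.6-fold higher, in that order, with the hHKDC1 OE counts taken as measured.

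Null fat libraries had more than 3 counts of Trbv3, Trbv12-1 and Trbv17 among the beta V genes. Trbv3 had 0, 10 and 0 counts in fat with the null vector and 47, 8 and 17 in hHKDC1 OE fat, so its groups overlapped, and its log2 fold change was 2.56 ± 1.33 SE (edgeR, adjusted p = 0.356). Those 10 counts were 66.7% of the V counts of null replicate 2. Trbv17 had 0, 0 and 6 counts in null fat against 22, 0 and 20, and its 6 counts were 20.7% of the V counts of null replicate 3. Trbv12-1 had 0, 4 and 0 counts in null fat against 32, 3 and 19. Trbv3 and Trbv12-1 were singled out after their values were seen.

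The beta V usage of replicates 1 and 3 of hHKDC1 OE fat had the same leading genes, Trbv13-2 and Trbv16, and changes of order below them. As a share of beta V counts, Trbv13-2 took 11.8% and 14.2%, Trbv16 9.15% and 12.2%, and Trbv1 7.60% and 7.73%. Across the 22 beta V genes of these libraries, Pearson's r between replicates 1 and 3 was 0.865, given as a description because gene length and ease of mapping are shared. The widest gap was in Trbv13-1, 8.37% in replicate 1 and 3.86% in replicate 3. Replicate 2, with 43 beta V counts, had r = 0.647 with replicate 1 and 0.581 with replicate 3. As a measure of evenness, the effective number of beta V genes (the inverse Simpson index) was 14.9, 5.83 and 13.4 in replicates 1 to 3.

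**Figure D4:**
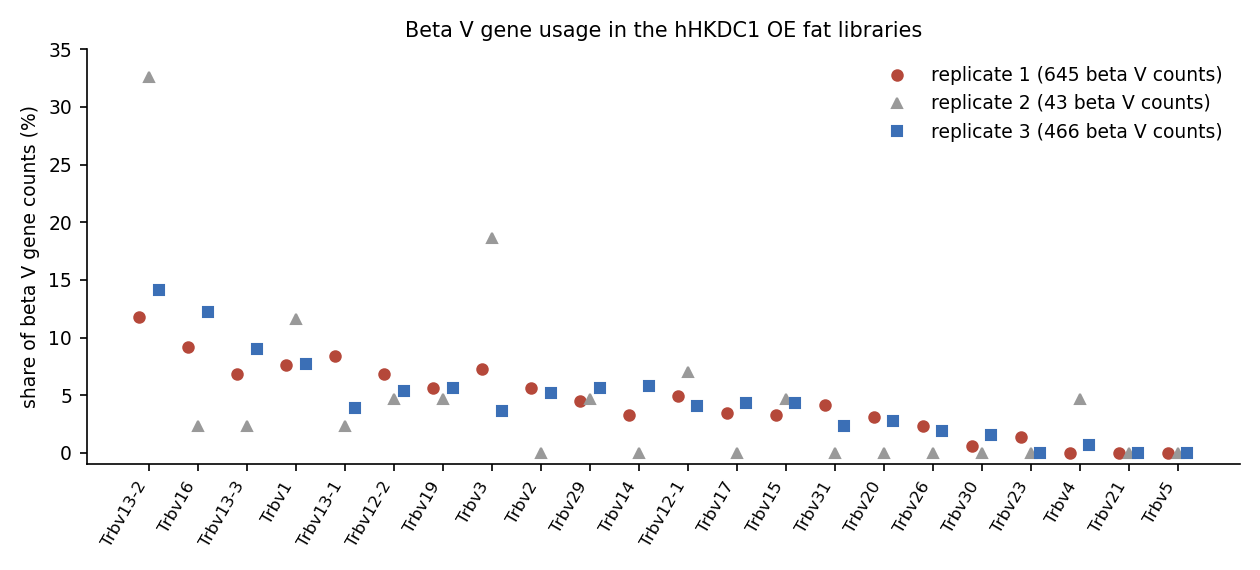
Share of beta V gene counts taken by each of the 22 beta V genes in the 3 hHKDC1 OE fat libraries, ordered by the mean of replicates 1 and 3. Trbv13-2 leads in all 3, and the points of replicate 2 scatter more, on 43 counts against 645 and 466.

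The alpha V genes had low counts spread over many genes. In hHKDC1 OE fat 59 of 110 were counted, 52, 9 and 39 in replicates 1 to 3, and in null fat 0, 1 and 6. Trav14d-3-dv8, whose name marks a V gene also used by the delta chain, had the highest level per length in fat, with 17, 0 and 7 counts in hHKDC1 OE fat and 0, 0 and 2 in null fat. Trav5-4 had 8, 1 and 9 counts, Trav14n-3 had 6, 0 and 12 and Trav14-3 had 6, 0 and 13, all with none in null fat. Trav13-1 had 3, 5 and 6 counts against 0, 0 and 2. The 10 alpha V genes named for use with either chain had 39, 0 and 13 counts together.

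Whether an alpha V gene was counted went with how much of it was unique. Of the 39 alpha V genes with no stretch of 150 bases in another T cell receptor transcript, 31 (79.5%) had a count in hHKDC1 OE fat, with 270 counts in all. Of the 21 that shared up to 50% of their stretches, 16 (76.2%) were counted, with 137 counts. Of the 50 that shared more than 50%, 12 (24.0%) were counted, with 49 counts. All 22 beta V genes were without shared stretches, and their 20 counted genes had 1154 counts. How the authors treated reads that match several copies is not given in the sources used here, so neither the number of alpha V genes in use nor the ratio of alpha to beta V counts can be read from these counts.

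**Figure D5:**
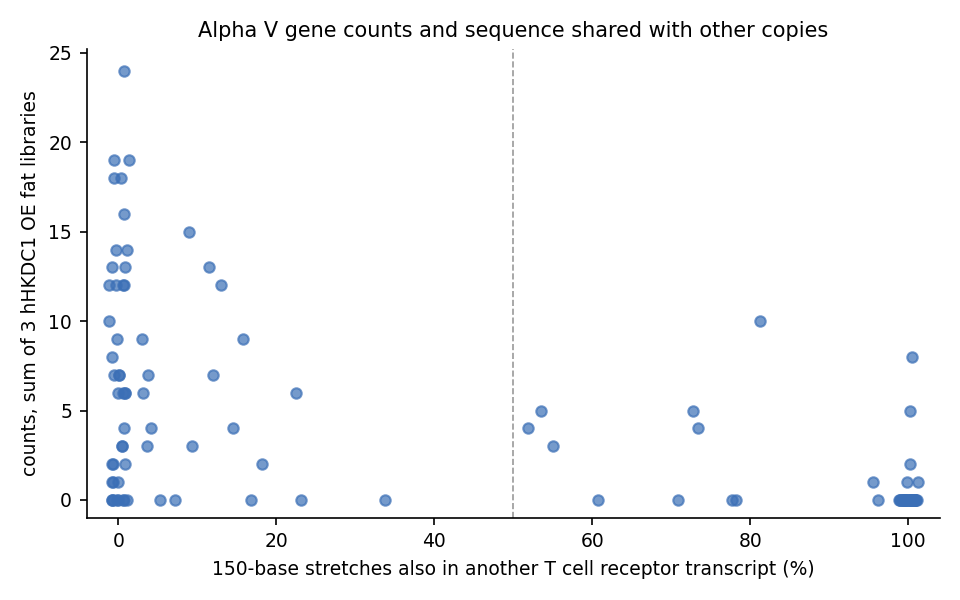
Counts of each of the 110 alpha V genes, summed over the 3 hHKDC1 OE fat libraries, against the percent of their 150-base stretches that also occur in another T cell receptor transcript of GENCODE vM21. Points are shifted sideways at random by up to 1.2 points to separate them. To the right of the dashed line at 50%, 12 of 50 genes have a count, and at 0% 31 of 39 do.

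The gamma and delta V genes had few counts anywhere. In hHKDC1 OE fat, Tcrg-V1 had 3, 0 and 7 counts, Trgv2 had 1, 0 and 5, Tcrg-V6 had 1, 0 and 3, Tcrg-V5 had 0, 0 and 3 and Tcrg-V4 had 2, 0 and 0. In null fat only Trgv2 among them was counted, with 2 counts in replicate 3. In liver, Trgv2 had 0, 2 and 4 counts in the null group and none in the hHKDC1 OE group, and Tcrg-V7 had 3 counts, all in hHKDC1 OE replicate 2. No gamma V gene was among the members that DESeq2 called in fat, and with counts this low the lack of a call does not show equal levels.

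Trdv4 led the delta V genes, with 9, 0 and 20 counts in hHKDC1 OE fat and 0, 0 and 3 in null fat. Trdv5, which overlaps Trdc, had 2, 4 and 5 counts against none, and Trdv2-2 had 0, 1 and 0 against 0, 0 and 3. Trdv1 and Trdv2-1 had none in any library, and no delta V gene had a count in liver.

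The alpha V genes of invariant T cells had almost no counts. Trav1, used by mucosal-associated invariant T cells, had 1 count in all, in hHKDC1 OE fat replicate 1. Trbv29 had 29, 2 and 26 counts in hHKDC1 OE fat and none in null fat, at least 16.8-fold higher over the floor. In liver the beta V genes with most counts were Trbv13-2, with 0, 2 and 4 counts in the null group and 0, 0 and 1 in the hHKDC1 OE group, and Trbv12-2, with 5 counts, all in null replicate 3. The alpha V counts of liver were 1 of Trav5-4 and 1 of Trav6-3, both in hHKDC1 OE replicate 2.

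The CD3 chains and the kinases and adaptors below the receptor were counted in the same libraries. The summed level of Cd3d, Cd3e and Cd3g was 2.43, 1.49 and 4.76 CPM in fat with the null vector and 152, 10.5 and 193 CPM in hHKDC1 OE fat, or 52.5, 3.61 and 66.7 times the null mean in replicates 1 to 3. These multiples are close to those of the receptor genes, 48.2, 3.50 and 67.0. Counts of alpha and beta constant genes per CD3 count were 2.30, 1.58 and 1.30 in fat with the null vector and 1.72, 1.76 and 1.99 in hHKDC1 OE fat, and the groups overlapped.

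In liver that ratio was 5.0, 2.04 and 1.43 in the null group and 1.12, 0.783 and 0.571 in the hHKDC1 OE group, without overlap. Cd3e alone had 1, 4 and 5 counts in null liver and 6, 6 and 7 in hHKDC1 OE liver, the reverse order of Trac and Trbc2. Cd3g had 0, 20 and 19 counts against 2, 12 and 7. The ratios rest on 4 to 28 CD3 counts per library and were not tested.

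Of 20 genes of the receptor complex and its proximal signaling, all 20 were tested in fat by edgeR and all 20 had a higher fitted level with hHKDC1 OE (median log2 fold change 4.55). Some, such as Cd8b1 with 2, 13 and 7 null counts, passed the filter through the hHKDC1 OE group and had to be higher. The 20 of 20 and the median thus only describe the list. None of the 20 was called by edgeR, and 19 were called higher by DESeq2, beside 4.16% of all genes. Without hHKDC1 OE replicate 2 edgeR called 20, beside 11.4%, from which nothing is read because the low library was left out. The co-receptor genes Cd8a and Cd8b1 had log2 fold changes of 6.30 ± 1.10 SE and 6.82 ± 1.18 SE, and Cd4 5.26 ± 1.01 SE, each with an edgeR adjusted p of 0.133. Lck, the kinase that phosphorylates the CD3 chains, had 14, 19 and 55 counts in fat with the null vector and 2594, 196 and 1762 in hHKDC1 OE fat. Cd247, which encodes the zeta chain, had 92, 97 and 95 counts against 655, 164 and 415, a smaller log2 fold change of 1.95. In liver 6 of the 20 genes were tested (median log2 fold change -0.25) and none was called.

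Genes of T cell states were looked at beside the receptor. In hHKDC1 OE fat, 6 of 7 genes of naive or central memory T cells were higher, led by Lef1 (2, 0 and 5 counts against 1100, 97 and 1122) and Ccr7, and DESeq2 called 5, to be read beside the 4.16% of all genes that it called higher. Of 10 tested genes of cytotoxic T or natural killer cells all were higher and DESeq2 called 7, whereas Gzma had 15, 13 and 38 counts against 45, 48 and 45. All 6 regulatory T cell genes were higher and DESeq2 called 4. Of 8 tested genes of gamma delta and innate-like T cells 4 were higher and DESeq2 called all 4, among them Blk, which is also on the B cell list. Il17a had no count in any library. EdgeR called no gene of these lists in fat, and genes that passed its filter through the hHKDC1 OE group alone had to be higher.

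Of the genes of thymocytes that are still rearranging their receptors, Rag1, Rag2 and Ptcra were at or near 0 and Dntt was not. Rag1, a subunit of the recombinase, had no count in any library, Rag2 had 0 to 3 and Ptcra, the surrogate alpha chain of thymocytes, had none in fat. Dntt, the polymerase that adds bases at the joints, had 8, 0 and 8 counts in fat with the null vector against 20, 3 and 28 with hHKDC1 OE, with overlap (DESeq2 log2 fold change 1.62 ± 1.23 SE, adjusted p = 0.555). In liver it had 87, 34 and 63 counts against 20, 51 and 23. Neither of the 2 genes of this list that were tested in fat was higher.

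Markers of B cells and of lymph nodes were higher in the same fat libraries as the receptor genes. The summed level of the 12 B cell genes was 2.92 to 4.60 CPM in fat with the null vector and 1105, 62.9 and 821 CPM in hHKDC1 OE fat. Of 11 rows of genes of lymph node stroma, high endothelial venules and lymphotoxins (Lta and Ltb), 5 were tested. Some of these, such as Glycam1, passed the filter through the hHKDC1 OE group alone and had to be higher, so their direction is not counted. The summed level of the 11 rows was 2.42 to 6.26 CPM in fat with the null vector and 320, 23.0 and 244 CPM in hHKDC1 OE fat. The lymphotoxin gene Ltb alone gave 160, 11.1 and 140 CPM of the latter, so these sums are not a measure of stroma or venules only. Glycam1, a product of high endothelial venules, had 0, 0 and 1 counts against 591, 43 and 348. Ccl19 and Ccl21a are each carried by more than one row. The Ccl21a row with the most counts had 20, 1 and 0 against 1299, 15 and 76, so its groups overlapped. The part of these cells in the receptor result was not tested.

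Markers of macrophages, adipocytes and hepatocytes gave smaller differences. Of 8 macrophage genes 6 had a higher fitted level with hHKDC1 OE, and their summed level was 285 to 617 CPM against 850 to 1265 CPM. Of 8 adipocyte genes 2 were higher, with 22430 to 30599 CPM in fat with the null vector and 20496 to 28588 CPM in hHKDC1 OE fat. Hepatocyte genes were present in every fat library, at 3898 to 10029 CPM in the null group and 1849 to 3011 CPM in the hHKDC1 OE group, against 76941 CPM or more in liver. All 10 had a lower fitted level in hHKDC1 OE fat (median log2 fold change -1.37), of which edgeR called none, and DESeq2 called 3 lower (Alb, Apoa2 and Tat), beside 0.63% of all genes fitted. DESeq2 called 2 macrophage genes higher (Lyz2 and Itgax) and no adipocyte gene. Without hHKDC1 OE replicate 2, edgeR called Lyz2 higher, beside 11.4% of all genes. It called Cd163, Lep and Cidec lower, beside 7.53% of all genes, and no hepatocyte gene. These genes were named after their values were seen. None of the 20 genes of the receptor complex was at 0 in all fat libraries.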

How the data were processed

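Total RNA of subcutaneous fat and liver was sequenced on 12 non-strand-specific paired-end libraries, 3 for each tissue and vector. According to the study's methods and the submitters' processing notes, alignment by the authors used STAR 2.5, and in the methods also a later version, and HTSeq 0.6.1 produced the counts, and the deposited table holds them as whole-number counts per gene that are not normalised. The methods name the human genome, but the table holds mouse identifiers. Gene lengths are those the authors list. Groups were taken from the sample titles. FPKM tables and the authors' own fold changes and p-values for fat were not used.

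Fat and liver were fitted separately in edgeR 4.0.16 (R 4.3.3): TMM, filterByExpr, quasi-likelihood test and Benjamini-Hochberg adjustment over all genes tested, with an adjusted p under 0.05 as a call. The interaction of vector and tissue was fitted over the 12 libraries. DESeq2 1.42.0 was the main alternative. All fits were tested on simulated counts. The summed level, the gamma and delta share and the number of V genes were compared with two-sided exact permutation tests (scipy 1.17.1), 9 in all. Shared sequence was the percent of 150-base stretches of a gene's transcripts found in another T cell receptor transcript of GENCODE vM21. Intervals are exact 95% binomial intervals and, like floors of 3 counts, cover counting error only. A library of 15496019 to 19954971 counts gives 1 count a weight of 0.0501 to 0.0645 CPM before normalisation.

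Genes were named by a rule: all constant genes, the V genes with the highest mean CPM per kb in each tissue (5 alpha, 5 beta, 3 gamma and 3 delta), V genes of invariant or restricted T cells, and members called. A further marker gene of naive or central memory T cells is not reported here. The members, the marker lists and the tests were chosen with earlier results of these data known. The study's text gives 3 mice per group for the fat libraries. For liver nothing in the sources used here says that libraries came from separate animals, so p-values there measure only the spread between these samples. Replicate numbers are shared between groups. Within a tissue, deviations of same-numbered null and hHKDC1 OE libraries correlated at 0.01, -0.12 and 0.03 in fat and at 0.22, 0.18 and 0.09 in liver. Whether fat and liver libraries of one number came from the same mouse is not stated and was not checked. The tests between tissues and the interaction treat them as independent.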

Additional observations from a re-analysis of the deposited data

Results flagged for a closer look

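The summed level of the receptor genes differed in direction between the tissues: every hHKDC1 OE library lay above every null library in fat, a log2 difference of 4.57, and below every null library in liver, a log2 difference of -1.63. The difference between these effects was not tested for the sum, and the liver order was lost with library size alone as the scale.

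Rows of other T cell receptor biotypes, which no comparison above uses, had counts above those of every null fat library in replicates 1 and 3 of hHKDC1 OE fat, but not in replicate 2. The 70 J gene rows had 135 counts in replicate 1 and 86 in replicate 3, against 7, 21 and 10 in null fat, whereas replicate 2 had 7. The 34 V pseudogene rows had 9 and 4 counts in replicates 1 and 3, and none in the null group or in replicate 2. The 4 D gene rows had 10 and 7 counts in these replicates, against 0, 2 and 0 in null fat and 2 in replicate 2. The 10 J pseudogene rows had 7 and 8 counts, with none in the null group or in replicate 2. In liver, the J gene rows had at most 2 counts per library and the other 3 kinds none.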

How the results depend on the processing

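Calls in fat depended on the tool and on 1 library. From 0 members called by edgeR, the number went to 15 with DESeq2 (beside 4.16% of all genes called higher), 9 without the filter on low counts (2.42%), 6 at an unadjusted p under 0.05 (11.3%) and 22 with DESeq2 without hHKDC1 OE replicate 2 (8.4%), the last chosen after seeing the data. With the replicate number as a replicate block it was 3 (0.971%), although the numbers share no stated origin. Leaving out each library in turn gave 0 to 21 calls, the 21 without hHKDC1 OE replicate 2. The interaction went from 0 calls to 6 at an unadjusted p under 0.05 (9.0% of all genes), 7 with DESeq2 (1.3%), 6 without the filter (1.36%) and 1 with the replicate block (0.0293%). The cause was not tested. In liver no alternative called a member. The block, the unadjusted p, the other scalings and the fits without null replicate 2 or 3 tested none, so their 0 was fixed beforehand. DESeq2 and the fit without the filter had 15 members, and the remaining fits tested 2.

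The level of fat above liver was 4.03 with library size alone (exact permutation p = 0.015) and 2.74 to 3.81 with each library left out (p = 0.03 to 0.13), and passed p under 0.05 without null fat replicate 2, null liver replicate 2 or null liver replicate 3. The excess of V genes in fat over liver was 22.4 to 35.9 with each library left out (exact permutation p = 0.01 to 0.135) and missed the threshold without null fat replicate 3 or without any of the 3 hHKDC1 OE liver libraries. In liver, the difference in V genes was -1.83 to 0.167 with each library left out, and changed sign without null replicate 3 or without hHKDC1 OE replicate 1. Between the tissues, 32 of 40 alternatives kept direction and side of the threshold. The 46 alternatives of the tests of 3 libraries against 3 say nothing about stability by their p, which cannot fall under 0.05. Thinning to the smallest V gene count could not be done across groups, since null fat replicate 1 had 1 V count and hHKDC1 OE liver replicate 1 had none, and for the same reason V genes alone gave no level or share in liver or between tissues. Depth limits every liver value and the null fat V genes, where 0 counts allow up to 3.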
